A study of Homo sapiens with 12 samples.

Results

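UHRF1 was knocked down in Kyse410, an established human line of esophageal squamous cell carcinoma, and the RNA of these cells was compared with that of Kyse410 carrying a scramble control. The series holds 12 libraries of polyadenylated RNA from cultured cells, and the 6 analysed here are all those labelled Kyse410, 3 with the short hairpin RNA (shRNA) against UHRF1 and 3 with the scramble. The other 6 libraries are the same pair of groups in a second line, TE10. They entered the statistical fit, so that all groups shared one estimate of spread, and otherwise serve only to show where Kyse410 differed. Cells of both Kyse410 groups had been stably infected, and the labels give no drug or other treatment for either. The number of hairpins is not given, so a change that follows from lower UHRF1 and one from the hairpin acting on another transcript cannot be told apart. Whether the 3 libraries per group are separate cultures is not given either, and the p-values therefore rest on a spread that may be only technical. The design text ties UHRF1 to the epithelial-mesenchymal transition (EMT) and to Akt signalling, and the comparison asks which transcripts moved with it in this line.

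UHRF1 is a nuclear ubiquitin ligase that keeps DNA methylation in place through cell division. It binds hemimethylated CpG sites behind the replication fork and histone H3 trimethylated at lysine 9, ubiquitylates the H3 tail, and so brings the methyltransferase DNMT1 to the new strand. Its RNA is abundant in dividing cells, carcinoma cells included. Where maintenance methylation fails, germline genes, imprinted genes and endogenous retroviruses are the best known loci to become active.

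Gene reads numbered 8794930 to 12005229 per Kyse410 library, and 42.9 to 43.8% of all reads were assigned to no annotated gene. Mitochondrially encoded RNA took 2.30 to 2.43% of gene reads with the scramble and 3.79 to 4.001% with the shRNA. Levels below are in CPM, a gene's count scaled to a common number of gene reads, with edgeR's TMM factors. Along the first principal component of the 6 libraries, with 71.1% of the variance, the 3 shRNA libraries lay apart from the 3 scramble libraries. The squamous label was checked against 12 markers, summed per library without the TMM scaling. Their sum was 1411 to 1444 CPM with the scramble and 1763 to 1824 CPM with the shRNA, and TP63, KRT13, SFN and PITX1 were expressed in all 6 libraries. The defining basal keratin KRT5 was near 1 CPM in both groups (1.14 and 1.37), and PKP1, SOX2 and IVL were below 1 CPM. Of 10 blood markers none averaged 1 CPM and PTPRC had no read. The 9 fibroblast markers summed to 117 to 128 CPM and 158 to 170 CPM, nearly all from COL1A1, with COL3A1, DCN and LUM at 0. The 6 neuroendocrine markers summed to 4.25 to 4.42 and 5.85 to 7.07 CPM, and the 5 melanocyte markers to 40.8 to 45.9 and 51.2 to 54.2 CPM with TYR at 0. The part of such cells or programmes in the results was not tested.

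UHRF1 (ENSG00000034063) lay at 101, 101 and 95.1 CPM in the 3 scramble libraries and at 42.1, 43.5 and 41.9 CPM in the 3 shRNA libraries. All shRNA libraries were below all scramble libraries, and 42.9% of the control level remained (95% confidence interval from the fit 39.1 to 47.0%; log2 fold change −1.22 ± 0.057 (SE), edgeR adjusted p = 1.6e-24). DNMT1, the methyltransferase that UHRF1 recruits, lay at 269, 262 and 271 CPM and rose to 319.9, 325 and 308 CPM (0.25 on the log2 scale). DNMT3B, which methylates unmethylated DNA, rose from 25.4, 20.6 and 22.2 to 51.1, 48.8 and 46.6 CPM, a log2 fold change of 1.10 ± 0.080 (SE). Its rise was larger than in TE10, where it was 0.55 (edgeR adjusted p of the difference 8.1e-05).

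Across the transcriptome, 7921 of 16060 genes tested (49.3%) were called at an adjusted p under 0.05 in edgeR's quasi-likelihood test. Of all genes tested, 22.6% were called higher (3627) and 26.7% lower (4294) with the shRNA, so a count of members called in a gene list has to be read against a high background. The share called rose with level, from 21.1% under 1 CPM to 59.2% at 20 to 100 CPM and 77.2% above 100 CPM. Above 100 CPM 28.5% were called higher and 48.7% lower, so the shares over all genes are too low a background for lists of abundant genes. The typical change was small: called genes moved by a median of 0.43 in absolute log2 terms, and the median over all genes tested was −0.03. Changes of at least 2-fold were called in 1145 genes (7.13%), and these were mostly upward, at 749 higher and 396 lower. At 8-fold or more 36 genes were higher and 14 lower. The upward excess lay below 100 CPM. At a mean under 1 CPM 98 genes were higher and 37 lower by 2-fold or more, at 1 to 5 CPM 342 and 181, at 5 to 20 CPM 177 and 83, and at 20 to 100 CPM 106 and 69, while above 100 CPM the counts were 26 and 26. The 3 shRNA libraries and the 3 scramble libraries did not overlap in 8928 of the genes tested (55.6%), so separate groups in a single gene are common in this comparison. This share also rose with level, from 28.8% under 1 CPM to 78.7% above 100 CPM. A gene at a low level can pass the filter through one group alone, so the counts at low levels are a description. In the account below, "rose" and "fell" are used only of genes called in this test, and a bare number after "by", or beside the name of TE10, is a log2 fold change.

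**Figure D1:**
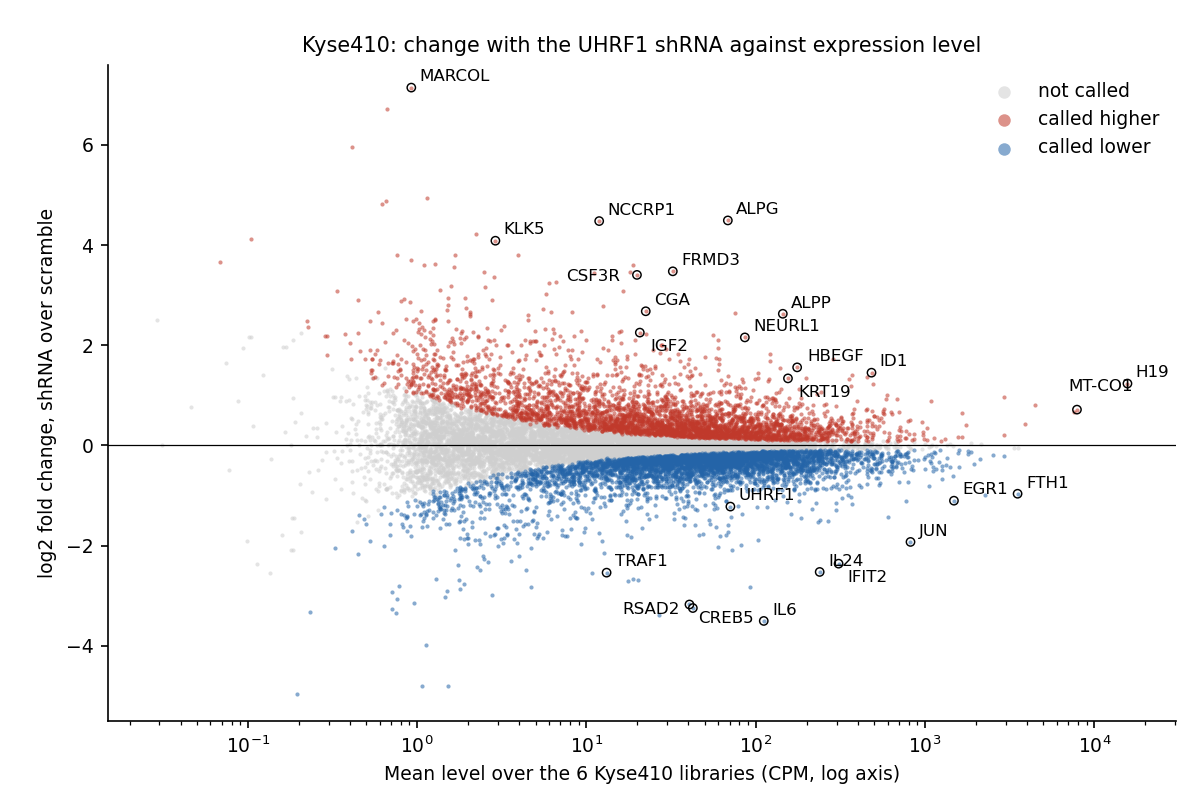
Log2 fold change with the UHRF1 shRNA against the mean level over the 6 Kyse410 libraries (CPM, log axis), 1 point per gene tested, red for genes called higher, blue for genes called lower and grey for the rest. Rises of 8-fold or more sit mostly at low levels, whereas falls of 4-fold or so include abundant transcripts such as JUN, IFIT2 and IL24; the fitted value of MARCOL depends on the prior count, since it has no scramble read.

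Enzymes and readers of DNA methylation were called in both directions. Of 22 members tested, 5 rose (22.7%) and 10 fell (45.5%), UHRF1 among the falls, with a median log2 fold change of −0.12. The shares over all genes tested were 22.6 and 26.7%. They were 24.7 and 34.5% at 20 to 100 CPM and 28.5 and 48.7% above 100 CPM, so these counts lie near the background of expressed genes. PCNA, the sliding clamp that also guides DNMT1, rose from 64.4 to 107 CPM. TET3, which oxidises methylcytosine, fell from 196, 211 and 224 to 167, 151 and 155 CPM, and TDG, the glycosylase that removes the oxidised bases, fell by 0.42 on the log2 scale. In TE10 both of these were called higher (0.45 and 0.22), and the difference between lines passed the test (edgeR adjusted p = 6.9e-14 and 1.3e-06). ZBTB4, a zinc finger protein that binds methylated DNA, fell by 0.53.

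Polycomb and trithorax genes, whose products write and remove the H3K27 and H3K4 marks, had 5 rises and 14 falls among 22, with a median of −0.24. The H3K27 methyltransferase gene EZH2 and the polycomb reader gene CBX2 were among those that rose (0.58 and 0.69). The demethylase gene KDM6B fell from 335, 332 and 346 to 188, 178 and 187 CPM. The H3K4 methyltransferase gene KMT2C fell by 0.96. Of 23 genes for H3K9 methylation and heterochromatin, 5 rose and 4 fell, a downward share below that of all genes, with a median of −0.02 whose sign changed in the fit of the 6 libraries alone and without shRNA or scramble replicate 2.

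Genes of secreted inflammatory signals fell more often than they rose. Of 27 cytokine and chemokine genes tested (17 of the 45 listed were too low to test), 4 rose and 18 fell, 10 of these by 2-fold or more, with a median of −0.81. IL24, a cytokine of the IL20 subfamily, lay at 406, 402 and 412 CPM with the scramble and 73.4, 71.2 and 66.8 CPM with the shRNA. The groups were far apart (log2 fold change −2.53 ± 0.048 (SE), edgeR adjusted p = 1.7e-41). In TE10 IL24 had a log2 fold change of 0.10, and the difference between the lines passed the test (edgeR adjusted p = 1.8e-12). IL11, a cytokine of the IL6 family, fell from 120.0, 116 and 114 to 28, 26.5 and 28.3 CPM. LIF, of the same family, fell by 0.84, and IL6 fell from 201, 204 and 210.1 to 17.2, 19.3 and 17.5 CPM. IL32 fell by 1.23. CCL26 and CXCL16, chemokines for eosinophils and T cells, rose by 1.39 and 0.38.

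NF-kB, a family of dimeric transcription factors held in the cytoplasm by IkB proteins, drives many of these cytokine genes. Of 29 genes of this pathway and its targets, 5 rose and 21 fell, with a median of −0.53. TNFAIP3, a target that switches the pathway off, lay at 398, 384 and 398 CPM and fell to 141, 138 and 138 CPM. TRAF1, an adaptor of TNF receptors, fell from 21.1, 24.1 and 22.3 to 4.11, 4.26 and 3.04 CPM, a log2 fold change of −2.54 ± 0.15 (SE). NFKB2, which encodes the p100 and p52 subunits, fell by 0.74, and the mitochondrial superoxide dismutase gene SOD2 fell by 0.81. The direction was not shared by all members: CD83, an activation marker of antigen presenting cells, rose from 20.6, 21.8 and 22.5 to 61.1, 60.2 and 59 CPM, and TNFAIP2 rose by 0.56.

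Cytokine receptors and STAT signalling genes moved both ways, with 16 rises and 10 falls among 40 and a median of 0.12. CSF3R, the receptor for granulocyte colony-stimulating factor, rose from 4.31, 2.75 and 3.03 to 36.8, 35.2 and 37.1 CPM. IL4R rose by 0.48. OSMR, a receptor chain for oncostatin M, rose by 0.37 where it fell in TE10 (−0.80; edgeR adjusted p of the difference 7.8e-23). IL7R fell by 1.37. IL6R, the receptor chain that binds IL6, fell by 0.77 and was called higher in TE10 (0.31).

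Interferon-stimulated genes, which encode the antiviral state, fell in part. Of 47 tested, 23 fell, 14 of them by 2-fold or more, and 5 rose, with a median of −0.43. IFIT2 lay at 512, 524 and 513 CPM in the scramble libraries and at 94.3, 108 and 98.5 CPM in the shRNA libraries (log2 fold change −2.36 ± 0.044 (SE), edgeR adjusted p = 1.5e-41). Its neighbours IFIT3 and IFIT1, which with it bind foreign RNA and its cap, fell from 129, 132 and 131 to 32.9, 33.3 and 32.3 CPM and from 70.8, 74 and 70.2 to 20, 22.4 and 19.5 CPM. RSAD2, the antiviral enzyme viperin, fell from 73, 79.8 and 78 to 7.85, 8.52 and 7.81 CPM. In each of these 4 genes the groups did not overlap, which follows largely from their choice as large changes. Over all genes tested the share without overlap was 55.6%. That share was 63.5% at 20 to 100 CPM and 78.7% above 100 CPM. In all 4 the fall was larger than in TE10 (adjusted p of the difference at most 0.0039 in edgeR). ZC3HAV1, which binds CpG-rich viral RNA, fell by 1.44, and the ubiquitin-like modifier ISG15 by 1.28. LGALS3BP, a secreted galectin ligand, rose by 0.82, and the DNA sensor IFI16 rose by 0.52. Both were called lower in TE10 (−0.13 and −1.07).

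The sensors of RNA and DNA that can induce these genes also moved both ways. Of 21 such genes, 9 rose and 6 fell, with a median of 0.02. The RNA helicases IFIH1 (MDA5) and DDX58 (RIG-I) fell from 87.8 to 28.2 CPM and from 56 to 20.5 CPM, and both are interferon-stimulated themselves. TMEM173, which encodes STING of the DNA sensing pathway, rose from 32.8, 33.7 and 36.1 to 59.3, 51.9 and 55.4 CPM, and was called lower in TE10 (−0.99; edgeR adjusted p of the difference 1.6e-18).

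The promoters of 5 fallen genes of these groups are shown, chosen because they hold a match to a motif of these pathways. IL24, IL11 and TRAF1, given above, have no match to the NF-kB motif in this window. Each line gives the 250 bases before the start of a gene, from RefSeq on GRCh38.p14, all on the plus strand, with motif matches in capitals. In IFIT1 (chr10:89392373-89392622), IFIT3 (chr10:89327747-89327996) and RSAD2 (chr2:6865635-6865884) the capitals mark GAAANNGAA, the repeat at the core of the interferon-stimulated response element. In IL6 (chr7:22726950-22727199) and TNFAIP3 (chr6:137867009-137867258) they mark GGANTTTCC, a form of the NF-kB site. Both motifs were searched on both strands, and an adjacent pair of matches may overlap.
IFIT1: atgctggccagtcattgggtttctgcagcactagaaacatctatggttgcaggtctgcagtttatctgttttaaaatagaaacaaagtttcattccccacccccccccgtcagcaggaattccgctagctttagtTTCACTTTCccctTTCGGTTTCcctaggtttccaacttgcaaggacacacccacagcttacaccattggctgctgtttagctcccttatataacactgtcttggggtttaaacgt
IFIT3: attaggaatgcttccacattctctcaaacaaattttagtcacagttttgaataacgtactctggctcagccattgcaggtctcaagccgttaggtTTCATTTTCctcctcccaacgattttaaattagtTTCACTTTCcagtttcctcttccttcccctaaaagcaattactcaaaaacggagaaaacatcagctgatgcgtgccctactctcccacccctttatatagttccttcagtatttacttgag
RSAD2: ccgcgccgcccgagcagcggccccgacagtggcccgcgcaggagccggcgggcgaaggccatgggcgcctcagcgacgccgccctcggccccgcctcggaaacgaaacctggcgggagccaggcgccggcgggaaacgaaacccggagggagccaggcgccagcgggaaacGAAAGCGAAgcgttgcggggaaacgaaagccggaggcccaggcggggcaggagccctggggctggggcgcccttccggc
IL6: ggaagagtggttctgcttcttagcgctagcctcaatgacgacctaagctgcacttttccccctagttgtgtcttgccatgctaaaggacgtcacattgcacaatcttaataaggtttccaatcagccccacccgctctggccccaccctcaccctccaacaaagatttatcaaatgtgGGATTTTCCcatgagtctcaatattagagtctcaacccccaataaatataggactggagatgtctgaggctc
TNFAIP3: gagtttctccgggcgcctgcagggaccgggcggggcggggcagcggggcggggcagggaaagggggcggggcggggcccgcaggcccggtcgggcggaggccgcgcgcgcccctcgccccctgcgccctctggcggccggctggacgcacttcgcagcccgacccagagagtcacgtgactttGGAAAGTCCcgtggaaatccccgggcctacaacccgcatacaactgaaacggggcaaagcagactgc
The matches in IFIT1 start 115 and 102 bases before the gene, those in IFIT3 155 and 121, and the one in RSAD2 79, and IL6 and TNFAIP3 have theirs at 72 and 67. IFIT2 was not among the promoters at hand.

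GAAANNGAA was found in 7.06% of the 27305 promoters in the RefSeq table and in 5.38% of the 10314 that belong to genes tested. It was present in 12 of the 17 matched members of the interferon list that fell (70.6%), IFIH1 and ISG15 among them, and in 7 of the 19 matched members that did not. CMPK2 and ZC3HAV1 were among the fallen members with no match in this window. Among all genes that fell by 2-fold or more 10.7% of 225 promoters held it, and among those that rose by as much 5.06% of 415. GGANTTTCC was found in 1.47% of all promoters and 1.43% of those of genes tested. It was present in 6.67% of promoters of genes that fell and 1.20% of those that rose by 2-fold or more, in 6 of 18 fallen NF-kB list members and in 6 of 15 fallen cytokine genes. Members of these lists that did not fall were not counted, and the NF-kB list was drawn up from targets of the pathway. The shares therefore cannot be tied to the fall. The sets also overlap, since IL6 counts both as a cytokine gene and as a 2-fold fall. A match is a description of the sequence and not evidence of binding in these cells.

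Immediate early genes, which are transcribed within minutes of growth factor or stress signals without new protein synthesis, fell almost throughout. Of 30 tested, 25 fell, 11 by 2-fold or more, and 2 rose, with a median of −0.76. JUN, a subunit of the AP-1 transcription factor, lay at 1315, 1258 and 1322 CPM and fell to 354, 325 and 347 CPM (log2 fold change −1.93 ± 0.037 (SE), edgeR adjusted p = 1.7e-41). EGR1, a zinc finger factor, lay at 2009, 1993 and 2062 CPM and fell to 959, 923 and 940.3 CPM. ATF3, a stress-induced factor, fell from 348, 342 and 346 to 120.0, 117 and 121 CPM, while in TE10 it had a log2 fold change of 0.08 (adjusted p of the difference 5.6e-17). CYR61, a secreted matricellular protein, fell by 1.11, and EGR2 fell from 20.6 to 4.67 CPM. BTG2, an antiproliferative member of the list, rose by 0.59. In all, 23 of the 30 differed in response from TE10, against 38.9% (6240) of all genes tested. Among all genes that share was 48.9% at 20 to 100 CPM and 65.5% above 100 CPM, where JUN, EGR1, ATF3 and CYR61 lay.

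The ERK pathway, one route to these genes, is read out by the phosphatases and adaptors it induces as feedback. Of 29 such genes, 4 rose and 17 fell, with a median of −0.23. FOSL1, an AP-1 subunit held up by sustained ERK activity, fell from 580.0, 566 and 569 to 351, 323 and 334 CPM. DUSP1, a nuclear phosphatase of MAP kinases, fell from 1775, 1741 and 1765 to 1184, 1138 and 1118 CPM, and DUSP8, a phosphatase of the stress kinases, fell by 0.88. The ERK phosphatase gene DUSP6 went the other way, from 93.3, 90.5 and 96.5 to 171, 169.7 and 172 CPM, and so did the receptor kinase inhibitor gene SPRY1 (0.67). In TE10 DUSP6 fell (−1.002) and DUSP8 rose (0.51), and both differences passed the edgeR test (adjusted p = 2.8e-26 and 1.2e-12).

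Of 17 EGFR family receptors and ligands, 5 rose and 7 fell, with a median of −0.14. HBEGF, a ligand of EGFR and ERBB4, lay at 88.7, 89.7 and 88.5 CPM and rose to 262, 257 and 267 CPM (log2 fold change 1.56 ± 0.048 (SE), edgeR adjusted p = 2.1e-32). The ligand gene EPGN rose from 10.1, 11.1 and 10.7 to 26.6, 33.5 and 36 CPM. ERBB3, the family member with an impaired kinase, rose from 1.30, 2.14 and 1.61 to 11.5, 9.09 and 11.4 CPM. EGFR itself fell from 1322, 1346 and 1354 to 953, 974 and 977 CPM. The groups did not overlap for any of these 4 genes, which were named for small p-values or large rises. This follows largely from the choice. Over all genes tested the share without overlap was 55.6%. That share was 50.6% at 5 to 20 CPM and 78.7% above 100 CPM.

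YAP and TAZ are coactivators of TEAD factors that respond to cell contact and tension. Of 24 of their targets and partners, 5 rose and 15 fell, with a median of −0.27. CTGF, a secreted target, fell from 106, 99.5 and 104 to 36.7, 32.4 and 33.3 CPM. The receptor kinase gene AXL and the membrane protein gene CRIM1 fell by 0.65 and 0.61. WWTR1, which encodes TAZ, and AMOTL1, an angiomotin that holds YAP at junctions, rose by 0.49 and 0.55, and both fell in TE10 (−0.50 and −0.28).

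Circadian clock genes had 1 rise and 13 falls among 19, with a median of −0.74, and their response in TE10 was 5 rises and 6 falls. PER1, a clock repressor that is also induced by acute signals, lay at 349, 348 and 357 CPM and fell to 129.9, 122 and 124 CPM. PER3 fell from 104, 103 and 123 to 48.2, 48.4 and 46.5 CPM and was called higher in TE10 (1.01; edgeR adjusted p of the difference 3.5e-17). HLF, an output factor of the PAR bZIP family, fell from 33.2, 31.9 and 32.2 to 5.66, 4.75 and 4.88 CPM, and it was not called in TE10, where it averaged 0.110 CPM with the scramble and 0.430 CPM with the shRNA (edgeR adjusted p = 0.072). NR1D1, the nuclear receptor REV-ERB alpha, fell by 0.82. NPAS2, a partner of BMAL1, was the one to rise (0.20). The labels give no time of harvest for either group.

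Epithelial genes mostly rose, while mesenchymal genes were called in both directions. Of 30 epithelial genes, 19 rose and 7 fell, with a median of 0.55. CDH1, which encodes E-cadherin of adherens junctions, lay at 113, 112 and 113 CPM and rose to 199, 193 and 194 CPM (log2 fold change 0.79 ± 0.046 (SE), edgeR adjusted p = 6.4e-21). KRT19, a keratin of simple epithelia, rose from 90.1, 86.7 and 86.2 to 229, 213 and 224 CPM, and the paired simple keratins KRT8 and KRT18 rose by 0.67 and 0.63. ST14, the membrane protease matriptase, rose from 43.3, 40.6 and 33.4 to 95.5, 87.7 and 86.9 CPM. TJP1, the tight junction scaffold ZO-1, fell from 299, 305 and 329 to 199, 207 and 196 CPM.

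Of 20 mesenchymal and EMT genes, 6 rose and 10 fell, with a median of −0.45. In TE10 16 of them were called lower. FN1, the matrix protein fibronectin, fell from 514, 494 and 529 to 240.2, 225 and 217 CPM, and SPARC, a collagen-binding matrix protein, from 70.7, 74 and 82.6 to 21.3, 22.9 and 22.8 CPM. CDH2, which encodes N-cadherin, fell from 16.3, 16.7 and 15.8 to 9.03, 7.13 and 7.70 CPM. Of the EMT transcription factors SNAI2 fell (175 to 95.1 CPM) and ZEB1 fell (9.98 to 5.78 CPM), while SNAI1 rose from 9.67, 10.5 and 10.3 to 21.4, 17 and 20.6 CPM. VIM, the intermediate filament gene used as a mesenchymal marker, lay at 115, 109 and 111 CPM and rose to 139, 145 and 134 CPM. In TE10 VIM fell by 1.249, and the difference between the lines was 1.57 on the log2 scale (edgeR adjusted p = 2.8e-28).

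**Figure D2:**
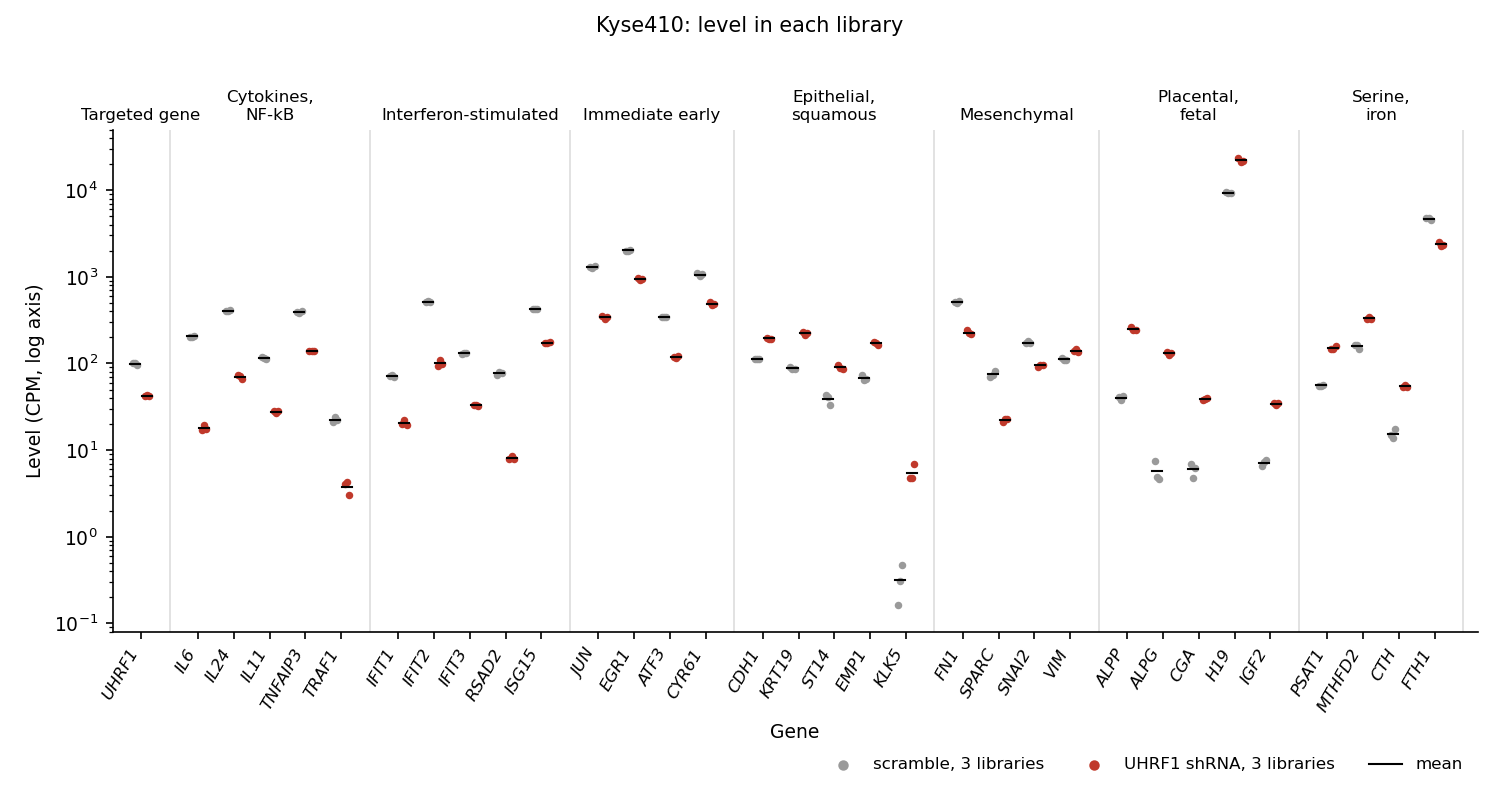
Levels of 33 named genes in each of the 3 scramble libraries (grey) and 3 UHRF1 shRNA libraries (red) of Kyse410, in CPM on a log axis, with bars at the means. In every gene shown the red and grey points do not overlap. Most were named for small p-values or large changes, so this follows largely from the choice. The share without overlap was 55.6% of all genes tested and 78.7% of those above 100 CPM. CDH1 and VIM both sit higher with the shRNA, and the cytokine, interferon-stimulated and immediate early genes sit lower.

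Keratins, the filament proteins that mark the layers of an epithelium, were called in both directions. Of 17 tested, 6 rose and 7 fell, with a median of 0.01. The basal and stress keratin KRT17 fell from 82.2, 83.5 and 77.1 to 40.9, 41.1 and 41 CPM, and the basal keratin KRT14 from 4.39 to 1.30 CPM. KRT81, a hair keratin with close copies in the genome whose reads may be shared, fell from 2229, 2118 and 2194 to 1719.9, 1684 and 1678 CPM. It was called higher in TE10 (0.42). Basal squamous identity genes had 8 rises and 11 falls among 24. LAMB3, a chain of laminin-332 in the basement membrane, fell from 1350.1, 1304 and 1347 to 805, 760.2 and 727 CPM. COL17A1, a hemidesmosomal collagen, fell by 0.57.

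Genes of squamous differentiation were mostly too low to test, with 23 of 50 passing the filter, and of these 12 rose and 4 fell. A member that passed because of its level with the shRNA had to differ, so the count is given as a description. PSCA, a surface protein of differentiated epithelium, rose from 29.7, 23.7 and 30.9 to 95.3, 90.4 and 95.9 CPM. EMP1, a membrane protein of suprabasal cells, rose from 73.9, 63.8 and 66.6 to 178, 174 and 164 CPM and had a log2 fold change of 0.08 in TE10 (edgeR adjusted p of the difference 1.5e-17). NCCRP1, an F-box protein of squamous epithelium, rose from 1.30, 0.918 and 0.758 to 24.5, 22.2 and 21.6 CPM. KLK5, a kallikrein protease of shed cornified layers, rose from 0.163, 0.306 and 0.474 to 4.74, 4.75 and 6.94 CPM. CSTA, a cornified envelope protease inhibitor, fell by 0.96, and the suprabasal keratin KRT10 by 0.35.

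Markers of columnar epithelium, the lining of stomach and gut, were summed over 12 genes. They totalled 60.5 to 62.4 CPM with the scramble and 114 to 125 CPM with the shRNA. Of the 12, 6 averaged below 1 CPM, and of 7 tested, 4 rose and 0 fell. GATA4 was not called, at 11.4, 10.9 and 12.4 CPM with the scramble and 10.85, 9.92 and 9.55 CPM with the shRNA. These GATA4 levels are without the TMM scaling, as are the sums. HNF4A, near 1 CPM in both groups, was not called either. The intestinal mucin gene MUC2 rose from 19.3, 22.5 and 20.2 to 53, 47 and 45.4 CPM, and was called lower in TE10 (−0.75). The trefoil peptide gene TFF1 rose from 8.04, 8.47 and 7.49 to 24.7, 24.8 and 21.4 CPM. The intestinal master regulators CDX1 and CDX2 had no read in any of the 6 libraries. More cells with these transcripts and more of them per cell cannot be told apart in bulk RNA, nor can the reverse for the genes that fell.

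All 19 collagen genes tested were called, 6 higher and 13 lower, with a median of −0.34. COL7A1, the anchoring fibril collagen, fell from 374, 356 and 362 to 219, 202 and 199 CPM, and the basement membrane collagen gene COL4A1 fell by 0.73. COL6A1, of microfibrils, rose from 190.1, 174 and 183 to 333, 309 and 321 CPM. COL13A1, a transmembrane collagen, rose by 1.06 and fell in TE10 (−1.16).

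TGF-beta, BMP and activin signalling genes were called at a high rate in both directions, with 17 rises and 16 falls among 41. ID1, an inhibitor of basic helix-loop-helix factors and a direct target of BMP signalling, lay at 270.2, 246 and 258 CPM and rose to 720.3, 699 and 701 CPM (log2 fold change 1.45 ± 0.040 (SE), edgeR adjusted p = 1.2e-34). In TE10 it had a log2 fold change of 0.05 (adjusted p of the difference 1.4e-26). FST, which traps activin, fell from 50.7, 49.5 and 45.5 to 18.3, 16.8 and 17.2 CPM. LTBP2, a matrix protein of the latent TGF-beta binding family, rose from 3.66, 4.18 and 3.88 to 11.8, 10.8 and 10.1 CPM and fell in TE10 (−1.39).

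Akt is the kinase that the design text sets beside UHRF1. Of 31 components of its pathway, 6 rose (19.4%) and 14 fell (45.2%), with a median of −0.10. The shares over all genes tested were 22.6 and 26.7%. They were 24.7 and 34.5% at 20 to 100 CPM and 28.5 and 48.7% above 100 CPM. AKT1 lay at 103, 105 and 103 CPM and rose to 150.5, 143 and 133 CPM. AKT2 lay at 135, 129.9 and 138 CPM and at 148, 139 and 147 CPM with the shRNA, a log2 fold change of 0.11 called at an edgeR adjusted p of 0.048. Without shRNA replicate 1 or 3, or scramble replicate 1 or 2, AKT2 was no longer called. IRS1, the adaptor that links insulin and IGF receptors to PI3K, fell from 103, 94.5 and 91.1 to 29.2, 25.7 and 27.1 CPM, and IRS2 by 0.89. PIK3C2B, a class II PI3-kinase, rose from 23.3, 23.7 and 21.1 to 81.8, 74.7 and 74.8 CPM. These are RNA levels and carry no measure of Akt phosphorylation.

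Some genes that changed by 2-fold or more lay next to one another. A run was defined as at least 3 consecutive protein-coding genes, among the 12345 tested and placed in order, that were each called at 2-fold or more in one direction. There were 12 runs with 43 genes, 8 of the runs upward and 4 downward. Of the coding genes placed in order, 533 were called higher and 287 lower at 2-fold or more. An excess of upward runs thus goes with the excess of upward genes, and the number of runs was not tested. Since runs were chosen on the Kyse410 values, these values describe them, and the TE10 fold changes did not enter the choice. Several members of upward runs lay below 1 CPM with the scramble, such as SPINK6 (0.167 CPM) and AOC1 (0.359 CPM). Such genes had little room to fall, and they may have passed the filter through 1 group of either line alone.

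An upward run on chromosome 2 was the alkaline phosphatase cluster. ALPP, the placental enzyme, lay at 40.5, 38.2 and 41.8 CPM and rose to 264, 241 and 242 CPM. ALPG, the germ cell enzyme, rose from 7.56, 4.90 and 4.64 to 137, 124 and 132 CPM. The 2 genes are nearly identical in sequence, so reads may have been divided between them in either direction. ALPI, the intestinal enzyme, rose from 23.4, 20.4 and 24.7 to 53.1, 45.4 and 51.1 CPM, and next to it the serine protease gene PRSS56 from 8.78, 7.85 and 6.63 to 28.5, 23.3 and 29.7 CPM. In TE10 ALPP and ALPG rose as well (2.05 and 3.90), whereas ALPI fell (−1.246; edgeR adjusted p of the difference 5.7e-15).

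On chromosome 5 a run of 5 genes held the secretoglobin SCGB3A2 (0.545 to 1.97 CPM), the serine protease inhibitors SPINK5, SPINK6 and SPINK13, and MARCOL. SPINK5, which restrains kallikreins in the epidermis, lay at 20, 20.5 and 18.6 CPM and rose to 60.9, 63.2 and 57.1 CPM. SPINK6 and SPINK13 rose from 0.167 to 1.43 CPM and from 0.416 to 3.41 CPM. In TE10 the fitted log2 changes were 5.43 for SPINK6 and 3.84 for SPINK13, and 0.16 for SPINK5.

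The longest run was downward, 7 zinc finger genes of the KRAB family on chromosome 19: ZNF823, ZNF441, ZNF440, ZNF700, ZNF136, ZNF44 and ZNF799. ZNF136 lay at 15.8, 15.8 and 15.8 CPM and fell to 5.57, 5.24 and 6.29 CPM. ZNF700 fell from 10.6, 14.1 and 10.7 to 5.29, 4.67 and 2.71 CPM, and ZNF44 from 9.18, 8.77 and 9.19 to 2.74, 3.69 and 3.36 CPM. Log2 fold changes in the run ranged from −1.11 (ZNF799) to −1.74 (ZNF823), against −0.56 (ZNF136) to −0.08 (ZNF799) in TE10. ZNF136 was the one called in TE10 as well (edgeR adjusted p there 0.042). ZNF799 was no longer called in Kyse410 without shRNA replicate 3 or scramble replicate 1. ZNF14, a related gene outside the run, fell from 14.6, 15.2 and 14.4 to 3.10, 3.93 and 4.23 CPM. Genes of this family share sequence, so part of their reads may be exchanged.

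The other downward runs were IFIT2, IFIT3 and IFIT1 on chromosome 10, then COLEC11, CMPK2 and RSAD2 on chromosome 2, and IFI44L, IFI44 and ADGRL2 on chromosome 1. They consist mainly of the interferon-stimulated genes above. IFI44 fell from 23.2, 25.1 and 21.9 to 9.76, 8.52 and 10.3 CPM. IFI44L, at 1.22 CPM with the scramble and 0.4 CPM with the shRNA, lost its call without scramble replicate 3. The lectin gene COLEC11 and the latrophilin gene ADGRL2 were the members outside that list.

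Further upward runs held CALHM2, CALHM3 and NEURL1 on chromosome 10, 3 cytochrome genes of fatty acid oxidation (CYP4F3, CYP4F12 and CYP4F11) on chromosome 19, and CACNG8, CACNG6 and OSCAR on the same chromosome. NEURL1, a ubiquitin ligase that acts on Notch ligands, lay at 33.9, 30.2 and 30.2 CPM and rose to 148, 128 and 147 CPM. CACNG6, a calcium channel subunit, rose from 23.3, 21.1 and 23.3 to 95.5, 92.4 and 103 CPM. CYP4F11 rose from 6.42, 5 and 5.78 to 12.9, 12.9 and 12.8 CPM, with the same caution on copies of the family. AOC1, NOS3 and ATG9B on chromosome 7 rose by 2.51, 1.79 and 1.96, and in TE10 by 3.17, 1.66 and 1.22.

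The remaining upward runs were on chromosomes 17 and 9. SCN4A, PRR29 and ICAM2 on chromosome 17 reached 13.6, 0.632 and 0.749 CPM with the shRNA, and PRR29 was no longer called without scramble replicate 3. CYSRT1, a gene of the cornified layer, rose from 7.96, 6.32 and 7.11 to 22.7, 21.7 and 22.3 CPM on chromosome 9. Its neighbours RNF224 and SLC34A3 were below 2 CPM, and both lost their call without shRNA replicate 2 or 3 or scramble replicate 1 or 3.

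**Figure D3:**
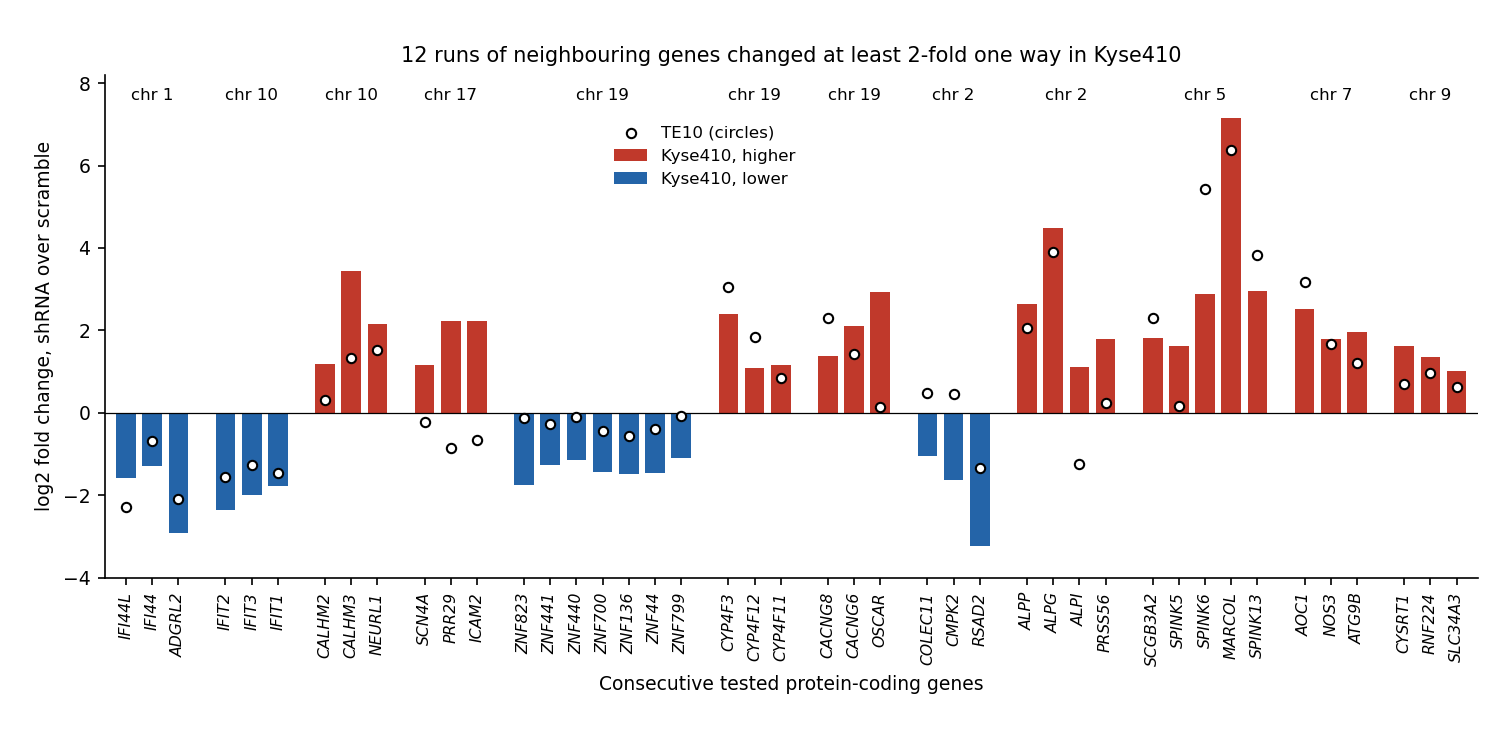
Log2 fold change with the UHRF1 shRNA in Kyse410 (bars, red higher and blue lower) for the 43 genes of 12 runs of consecutive tested coding genes, with the TE10 value of each gene as a circle. The 7 zinc finger genes on chromosome 19 fall in Kyse410 while their TE10 values lie between −0.56 and −0.08, and ALPI points up in Kyse410 and down in TE10.

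H19, an imprinted long noncoding RNA of fetal tissues, gained more reads than any other gene. It lay at 9509.5, 9355 and 9185 CPM and rose to 23283, 21006 and 21767 CPM (log2 fold change 1.24 ± 0.031 (SE), edgeR adjusted p = 2.3e-36). Its share of gene reads went from 0.944 to 0.9748% with the scramble to 2.21 to 2.41% with the shRNA. IGF2, the growth factor gene that shares an imprinting control region with H19 and is normally expressed from the other parental copy, rose from 6.50, 7.34 and 7.67 to 34.8, 32.9 and 34.7 CPM. Both rises were larger than in TE10 (0.65 and 0.33; edgeR adjusted p of the difference 2.7e-16 and 4.6e-13). Among 21 imprinted genes tested, 7 rose and 9 fell, with a median of 0.03. The adaptor gene GRB10 and the retrotransposon-derived gene PEG10 were among those that fell (−0.55 and −0.56). Counts do not separate the parental copies.

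The 10 largest gains in CPM took 3.41 to 3.47% of gene reads with the scramble and 6.33 to 6.47% with the shRNA. After H19 they were the mitochondrially encoded MT-CO1, MT-RNR2, MT-ND4, MT-CO2, MT-ND5 and MT-CO3, the elongation factors EEF1A1 and EEF2, and ID1. MT-CO1, a subunit of cytochrome oxidase, rose from 5845, 5879 and 6204 to 9609.6, 9909 and 9909.8 CPM, and the ribosomal RNA gene MT-RNR2 by 0.67. All 13 mitochondrially encoded genes rose, with a median of 0.69, where TE10 had 1 rise and 7 falls. Of 57 nuclear genes of the respiratory chain, 11 rose and 13 fell, shares below or near those of all genes, with a median of −0.04. The part of this shift in the other results was not tested beyond a fit without these genes, in which 3670 genes were called higher and 4210 lower.

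The 10 largest losses took 2.004 to 2.045% of gene reads with the scramble and 1.09 to 1.12% with the shRNA. FTH1, the ferritin heavy chain that stores iron, lay at 4719, 4751 and 4493 CPM and fell to 2536, 2276 and 2342 CPM. In TE10 it rose slightly (0.13; edgeR adjusted p of the difference 1.4e-24). BEST1, whose gene overlaps FTH1, fell from 2993, 2920 and 3066 to 1509.8, 1513 and 1480 CPM, and its reads may be those of FTH1. GDF15, a stress-induced cytokine of the TGF-beta family, fell from 1585, 1488 and 1565 to 962, 948 and 987 CPM and rose in TE10 (1.8). RHOB, a short-lived GTPase, fell from 877, 861 and 889 to 330.2, 323 and 328 CPM, and in TE10 it had a log2 fold change of −0.03 (adjusted p of the difference 2.0e-25). The others were EGR1, JUN, DUSP1, LAMB3, CYR61 and KRT81, given above.

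The large rises among expressed genes were in genes of differing function. CGA, the common subunit of glycoprotein hormones including chorionic gonadotropin, lay at 6.91, 4.79 and 6.25 CPM and rose to 38, 38.7 and 39.6 CPM. ERVH48-1, an endogenous retroviral envelope gene known as suppressyn in placenta, rose from 2.68, 2.86 and 3.98 to 22.9, 22 and 20.4 CPM, in TE10 by 3.01. FGF19, an enterocyte hormone that restrains bile acid synthesis, rose from 3.90, 3.16 and 3.22 to 30.5, 28.8 and 29.2 CPM. GCNT3, a mucin glycosyltransferase, rose from 1.14, 1.84 and 0.853 to 10.5, 9.50 and 10.8 CPM. B4GALNT1, which makes gangliosides, rose from 1.38, 1.22 and 0.758 to 11.8, 9.18 and 11.7 CPM, and the zinc finger gene ZNF114 from 0.9751, 1.43 and 1.33 to 11.5, 12.4 and 11.8 CPM. FRMD3, a FERM domain protein of the membrane skeleton, rose from 5.61, 4.18 and 6.06 to 57.8, 59 and 61.4 CPM. OTULINL, a relative of the deubiquitinase OTULIN, rose from 2.60, 2.86 and 3.51 to 32.8, 33.8 and 32.3 CPM, and MPPED1, a brain metallophosphoesterase, from 3.74, 1.84 and 2.75 to 36.6, 34.4 and 33.3 CPM. These genes were picked for large rises and separate groups, so their separation follows from the choice. The adenosine receptor gene ADORA1 rose from 2.68, 1.94 and 1.99 to 15.4, 13.2 and 14.1 CPM, with 0.03 in TE10 (edgeR adjusted p of the difference 9.0e-11). CDH5, the cadherin of endothelium, rose from 24.7, 24.6 and 24.9 to 104, 91.9 and 90.7 CPM, while the other endothelial markers VWF, KDR, TEK and CLDN5 stayed below 2 CPM in every library.

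Large falls outside the inflammatory groups included regulators of adhesion and growth. NEDD9, a scaffold of focal adhesions that promotes migration, lay at 96.4, 93.5 and 99.5 CPM and fell to 23.6, 25.3 and 21.2 CPM. In TE10 it had a log2 fold change of 0.31 (edgeR adjusted p of the difference 7.8e-10). CREB5, a partner of AP-1 factors, fell from 71.6, 77.6 and 69.9 to 7.94, 7.78 and 8.57 CPM. EDN1, the vasoconstrictor endothelin, fell from 30.4, 37.1 and 37 to 4.20, 5.32 and 6.72 CPM, against 0.29 in TE10. RAET1L, a stress ligand of natural killer cells, fell from 30.8, 30 and 30.4 to 4.47, 4.51 and 5.10 CPM. GAS1, a membrane protein of hedgehog signalling, fell from 18.8, 16.6 and 20.1 to 3.01, 3.52 and 2.82 CPM.

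Genes of DNA replication and mitosis mostly rose. Of 52 DNA replication genes, 44 rose and 1 fell, with a median of 0.37. RRM2, the regulated subunit of ribonucleotide reductase, rose from 205, 210.2 and 191 to 324, 328 and 318 CPM. LIG1, the ligase of Okazaki fragments that is also known to recruit UHRF1, rose from 33.2, 30.1 and 30.7 to 68.3, 59.2 and 58 CPM, and the licensing factor gene CDT1 rose by 0.83. The 1 fall was in ORC2, at an edgeR adjusted p of 0.046, and without shRNA replicate 1 or 2, or scramble replicate 1 or 2, it was not called. Of 53 genes of G2 phase and mitosis, 34 rose and 4 fell, with a median of 0.27. MKI67, the proliferation marker Ki-67, rose from 338, 339 and 347 to 572, 546 and 554 CPM. TOP2A, the decatenating topoisomerase, rose by 0.72 and fell in TE10 (−0.25). DNA repair genes had 21 rises and 6 falls among 40, with a median of 0.24.

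G1 regulators were divided, with 12 rises and 11 falls among 27. CCNE2, the cyclin that fires S phase entry, lay at 12, 13.6 and 11 CPM and rose to 36.6, 35.1 and 33.6 CPM. E2F7, a repressor that follows E2F activation, rose from 37.2, 37 and 39.4 to 99.3, 99.2 and 97.1 CPM. In TE10 their log2 fold changes were 0.19 and 0.01, and both differences passed the edgeR test (adjusted p = 5.5e-14 and 2.9e-18). CDKN2A, which encodes the inhibitor p16, fell from 87.1, 88 and 89.3 to 46.1, 47.6 and 49.9 CPM, and the G1 kinase gene CDK6 from 222, 226 and 219.7 to 137, 151 and 153 CPM.

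Genes that build ribosomes mostly fell. Of 53 ribosome biogenesis genes, 44 fell and 1 rose, with a median of −0.41. In TE10 27 of them rose and 2 fell, and in 49 of the 53 the effects of the lines differed at the edgeR threshold. Of all genes tested 38.9% differed so, of those at 20 to 100 CPM 48.9% and of those above 100 CPM 65.5%. RRP12, which exports pre-ribosomes, lay at 82.3, 84.4 and 83.4 CPM and fell to 36, 33.3 and 35.4 CPM. DDX21, a nucleolar helicase, fell from 647, 671 and 618 to 408, 418 and 412 CPM. ODC1, the first enzyme of polyamine synthesis and a classic MYC target, fell from 456, 469 and 462 to 246, 269 and 263 CPM, and MYBBP1A, a nucleolar partner of MYB, fell by 0.74. Both were called higher in TE10 (0.41 and 0.18). TCOF1, the nucleolar protein treacle, was the 1 to rise (0.14).

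Other genes of RNA and protein production were called lower more often than higher. Of all genes tested above 100 CPM, 48.7% were called lower and 28.5% higher, and of those at 20 to 100 CPM 34.5 and 24.7%. Of 56 cytosolic ribosomal protein genes, 7 rose and 34 fell, with a median of −0.18. RPS18 fell from 661, 642 and 639 to 466, 455 and 428 CPM, and RPL14 rose from 244, 226 and 229 to 338, 329 and 329 CPM. Of 20 snoRNA host genes 13 fell, with a median of −0.34. GAS5 and ZFAS1, noncoding hosts of snoRNAs, fell by 0.74 and 0.79. Spliceosome and RNA processing genes had 6 rises and 28 falls among 42, with a median of −0.18. Translation factors were called in both directions, with 11 rises and 15 falls among 36 and a median of −0.06.

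**Figure D4:**
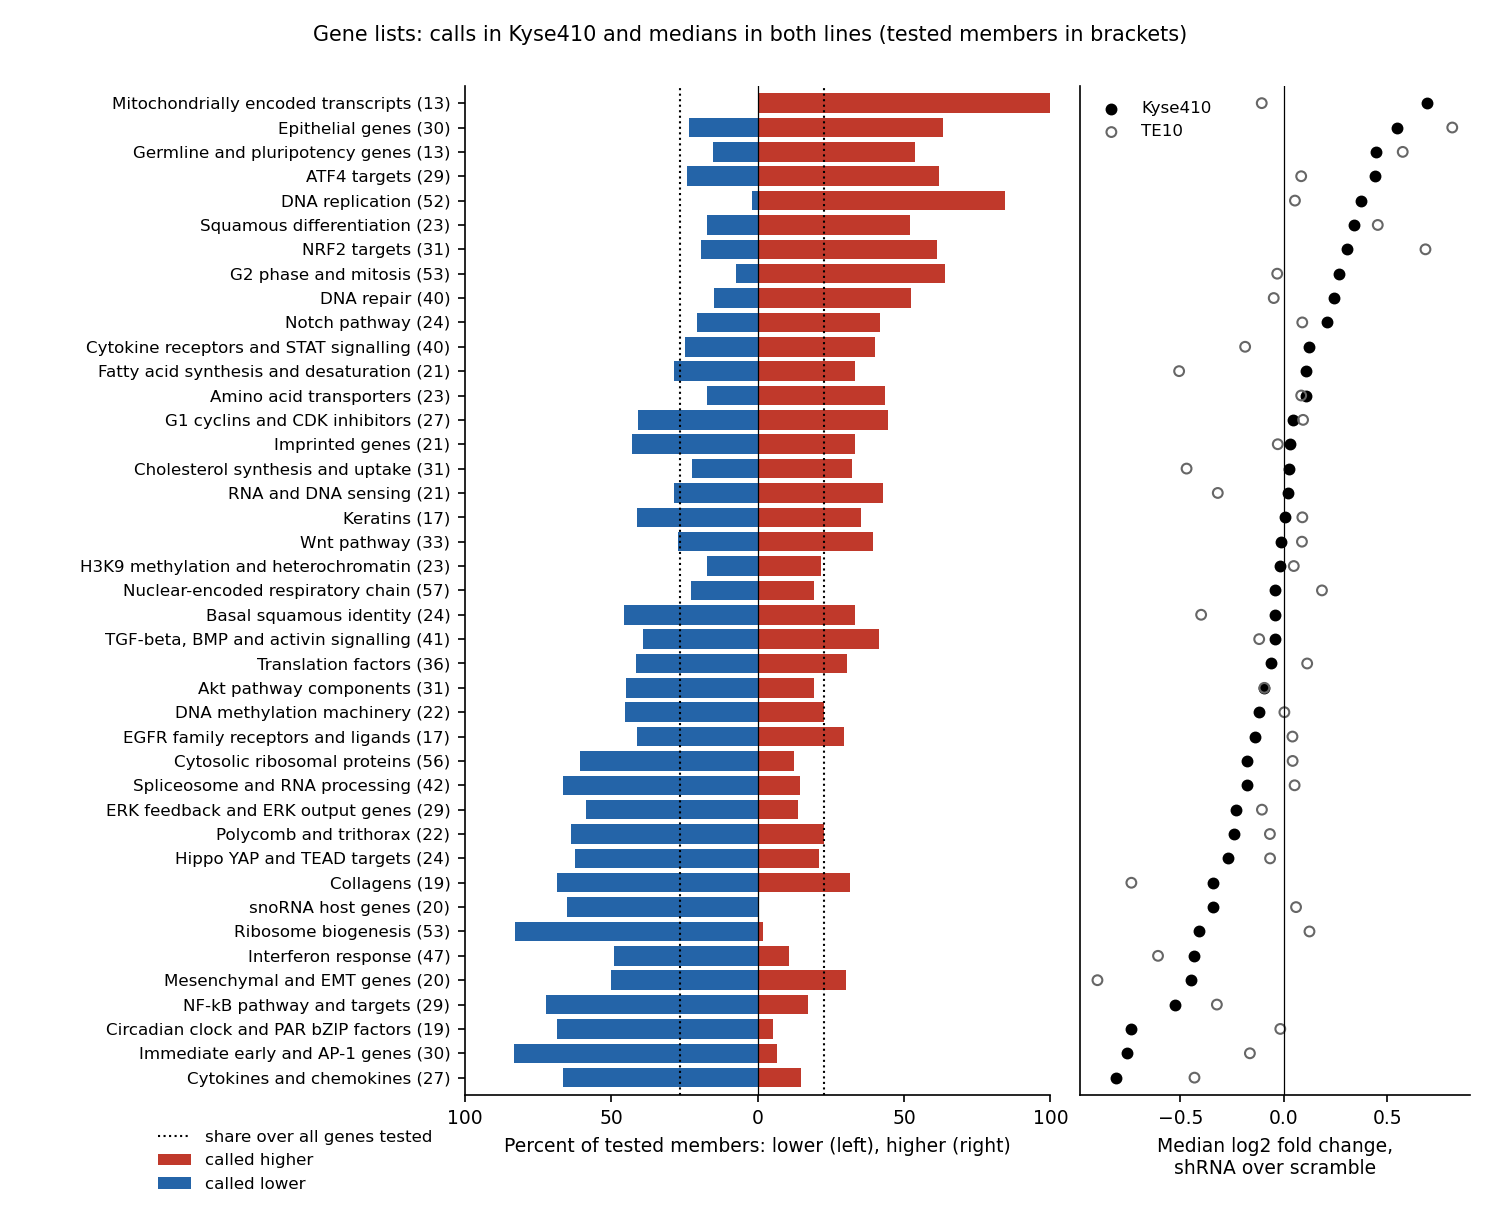
Left, percent of tested members of each gene list called lower (blue, to the left) and higher (red, to the right) in Kyse410. Dotted lines mark the shares over all genes tested (26.7 and 22.6%), and the number tested is in brackets. Above 100 CPM these shares were 48.7 and 28.5%, so the lines are low for lists of abundant genes. Right, median log2 fold change in Kyse410 (filled) and TE10 (open); ribosome biogenesis and mitochondrially encoded transcripts have medians of opposite sign in the lines.

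Metabolic lists tied to amino acid and redox stress leaned upward. Of 29 ATF4 targets, 18 rose and 7 fell, with a median of 0.44. The rises were led by serine and one-carbon enzymes: PSAT1, of serine synthesis, lay at 54.9, 55.2 and 57.1 CPM and rose to 148, 148 and 158 CPM. MTHFD2, of mitochondrial folate metabolism, rose from 164, 162 and 146 to 323, 348 and 322 CPM. CTH, which makes cysteine from cystathionine, rose from 15, 13.7 and 17.4 to 53.3, 56.7 and 52.8 CPM, and SHMT2 rose by 0.81. The stress factors DDIT3 (CHOP) and NUPR1 fell from 119, 125 and 127 to 71.3, 64.7 and 63.9 CPM and from 89, 95.1 and 87.5 to 45.3, 40.4 and 40.8 CPM. Amino acid transporters had 10 rises and 4 falls among 23, with SLC1A4, a carrier of alanine and serine, at 1.35 and the cationic amino acid carrier SLC7A2 at −0.55.

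Of 31 targets of NRF2, the factor of the antioxidant response, 19 rose and 6 fell, with a median of 0.31, against 27 rises in TE10. TKT, a transketolase of the pentose phosphate pathway, rose from 344, 340.2 and 351 to 592, 562 and 549 CPM. PIR, a nuclear iron-binding protein, rose by 1.91 and the aldehyde dehydrogenase gene ALDH3A1 by 0.73. The 6 falls included FTH1, given above, which is also on this list and fell by 0.96.

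Lipid synthesis genes did not take one direction in Kyse410. Of 31 genes of cholesterol synthesis and uptake, 10 rose and 7 fell, with a median of 0.02, where TE10 had 22 falls. HMGCS1, an early enzyme of the pathway, fell from 75.3, 79.1 and 73.6 to 49.7, 56.9 and 49.9 CPM. Of 21 fatty acid genes, 7 rose and 6 fell. ACACB, the mitochondrial acetyl-CoA carboxylase, rose from 2.60, 1.94 and 2.94 to 13.4, 9.83 and 11.1 CPM, and SCD, the stearoyl-CoA desaturase, fell from 676, 687 and 687 to 408, 399 and 412 CPM.

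Notch pathway genes had 10 rises and 5 falls among 24, with a median of 0.21. The target gene HEY1 rose from 6.01, 5.30 and 5.87 to 17.6, 18.8 and 18.4 CPM, HES2 from 14.1, 11.5 and 13.4 to 42, 35.1 and 37.2 CPM, and LFNG, which glycosylates Notch receptors, by 1.73. The receptor gene NOTCH2 fell from 301, 285 and 303 to 164, 161 and 160.2 CPM. Wnt pathway genes had 13 rises and 9 falls among 33. FZD10, a receptor, rose from 19.6, 19.5 and 18.3 to 59.2, 55.4 and 54.2 CPM, and the ligand gene WNT7B by 0.81, while the inhibitors NKD2 and DKK1 fell by 1.22 and 0.63.

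Genes that methylation is known to hold silent were examined at low read numbers. Of 59 germline and pluripotency genes, 44 were too low to test and 2 had no match in the annotation, so the 13 tested do not stand for the list. Of these, 7 were called higher and 2 lower. ZFP42, the pluripotency factor REX1, lay at 7.31, 6.43 and 6.06 CPM and rose to 22.4, 19.7 and 26.1 CPM. In TE10 its rise was larger (3.19; edgeR adjusted p of the difference 3.6e-06). PRAME, a cancer testis antigen, rose from 0.289 to 1.67 CPM, and DPPA2 from 1.64 to 3.99 CPM. MAGEA3, another such antigen with near-identical copies, had no read in the 3 scramble libraries and 11, 26 and 8 reads in the shRNA libraries. Against a floor of 3 reads over the scramble group it was at least 15.4-fold higher, and the counting interval of the ratio starts at 12.01. The 2 falls were in HORMAD1, a protein of the meiotic chromosome axis (6.19 to 3.80 CPM, −0.68), and MAGEA1, of the same antigen family (14.9 to 12.2 CPM, −0.29). HORMAD1 was no longer called without shRNA replicate 3, and MAGEA1 without shRNA replicate 2 or scramble replicate 3.

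Over all genes, 17 were called higher with at most 3 reads in the scramble libraries together, and 4 were called lower with at most 3 reads in the shRNA libraries together. MARCOL, the neighbour of SPINK6, had no scramble read and 24, 21 and 15 shRNA reads, at least 20.5-fold higher against the same floor (counting interval from 16.2). WIPF1, an actin regulator of blood cells, had none against 10, 6 and 10 reads (at least 8.89-fold, interval from 6.73). NLRP12, an inflammasome family member, had 1 scramble read and 41 shRNA reads, or 42.1 times as many after scaling (95% interval from counting 7.14 to 1701). In the other direction MCOLN3, a lysosomal cation channel, had 33, 34 and 28 reads with the scramble and 0, 2 and 1 with the shRNA (30.9 times as many, 10.3 to 152). FLI1, an ETS factor, had 5, 1 and 7 scramble reads and no shRNA read, at least 4.23-fold lower (interval from 2.97). The floor takes the reads of the higher group as exact, the intervals do not, and both cover counting error only.

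Promoters of the risen genes were poorer in CpG sites than those of other expressed genes. The measure was the ratio of observed to expected CpG in the 250 bases before the start, and a value of at least 0.6 was counted as CpG-rich. This held for 78.6% of 10314 tested genes with a promoter in the table, 63.1% of 225 that fell and 46.3% of 415 that rose by 2-fold or more. The order was the same within coding genes of 1 to 5 CPM (59.3, 57.7 and 40%), 5 to 20 CPM (77.9, 65.3 and 48.5%), 20 to 100 CPM (86.3, 71.2 and 54.9%) and above 100 CPM (83.9, 75 and 68.8%), in the sequence tested, fallen and risen. The bin above 100 CPM holds 16 risen and 20 fallen promoters, and there the median ratio was 0.856 for tested, 0.756 for fallen and 0.881 for risen genes, so its order differed from that of the shares. No methylation was measured in these samples, so these are features of sequence alone.

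In TE10 38.8% of the genes tested were called, and the response of 38.9% (6240) differed between the lines. VIM, DUSP6, GDF15, ALPI, LTBP2 and PER3 are among the genes named above that were called in opposite directions in the lines. UHRF1 itself did not pass this test (edgeR adjusted p = 0.093), with log2 fold changes of −1.22 in Kyse410 and −1.06 in TE10.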

How the data were processed

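Polyadenylated RNA was prepared with Trizol and oligo(dT) beads and made into libraries with a VAHTS V3 kit, per the labels' protocols. HISAT2 2.1.0 on GRCh37.p13 and HTSeq 0.9.1 stand in the submitters' processing notes, beside bcl2fastq 2.19 and DESeq2. Sources used here give neither the strand setting nor the annotation release, so a gene and an antisense or overlapping partner cannot be told apart. The deposited values are raw read counts per gene, which the authors made for 57820 gene IDs, followed by 5 summary lines that were dropped; reads without a gene were 42.9 to 43.8% of all reads. IDs were named through GENCODE 29 (52338 matched), whose order of genes on GRCh38 also gave the neighbours. The ID of UHRF1 had no match there and was named by hand. Named IDs held 99.0% of Kyse410 gene reads. No coordinates of the files' build were used.

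The counts of all 12 libraries were filtered with filterByExpr, which left 16060 genes, scaled by TMM and fitted with edgeR 4.0.16 (R 4.3.3) by quasi-likelihood, with 1 mean per line and construct and 8 residual degrees of freedom. Kyse410 shRNA minus scramble was tested, and the difference of this effect from that in TE10, with Benjamini-Hochberg adjustment over all genes and a threshold of 0.05. The script was tested on simulated counts. Replicate libraries of a group differed by more than sampling noise (chi-square per degree of freedom 1.61 to 2.92), and each was counted as 1 replicate. Repeat libraries of 1 culture can also exceed sampling noise, so this value cannot show that the cultures were separate. Alternatives were a fit of the 6 libraries, DESeq2 1.42.0 size factors and Wald test, limma-voom (limma 3.58.1), other filters, no mitochondrially encoded genes, a replicate block, and each library left out.

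The 66 gene lists and 7 marker lists (2155 members, 21 unmatched) were chosen with earlier results of these data known, as were the genes described. Named genes are the 15 strongest rises and falls among called genes of at least 5 CPM with separate groups, the 10 largest gains and losses in CPM, up to 4 members with the smallest p in a list's majority direction and 2 in the other, up to 8 genes near 0 reads in one group for each direction, members of neighbour runs, and the genes of the study's question. The text names a subset of these, and marker genes of the squamous label. Genes that mark sex are not named. Lists that are not described, and some named genes, are not reported here.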

Additional observations from a re-analysis of the deposited data

Results flagged for a closer look

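The results below are genes named above that edgeR called in opposite directions in the lines, with a called difference between the effects. Each value is the log2 fold change in Kyse410 minus that in TE10, so a positive value means a rise in Kyse410 and a fall in TE10.

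Positive differences were found in LTBP2 (2.87), COL13A1 (2.23), VIM (1.57), OSMR (1.17), WWTR1 (0.995) and AMOTL1 (0.83). They were also found in ALPI (2.37) and MUC2 (1.99), genes of intestinal epithelium, and in the ERK phosphatase gene DUSP6 (1.87). Innate immune genes in this direction were TMEM173 at 1.69, IFI16 at 1.60 and LGALS3BP at 0.95. TOP2A differed by 0.97 and NPAS2 by 0.35. Mitochondrially encoded RNAs differed by similar amounts, with MT-CO3 at 1.15, MT-ND5 at 1.06, MT-CO1 at 1.06 and MT-RNR2 at 1.045.

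Negative differences were led by the stress cytokine gene GDF15 at −2.48 and the clock gene PER3 at −2.21. The chromatin and demethylation genes KDM6B, TET3 and TDG differed by −1.42, −0.87 and −0.64. The ferritin gene FTH1 and its overlapping neighbour BEST1 differed by −1.10 and −1.15. ODC1 and MYBBP1A, tied to growth and nucleoli, were at −1.24 and −0.92. DUSP8 stood at −1.39 and IL6R at −1.08. The epithelial genes LAMB3, KRT10 and KRT81 differed by −0.91, −0.81 and −0.78.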

How the results depend on the processing

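Over the alternatives run, the count of genes called higher lay between 3167 and 3921 and of those called lower between 3699 and 4360. UHRF1 kept its call, with log2 fold changes of −1.25 to −1.20, and 5501 to 6276 genes differed from TE10. Genes called at 2-fold or more numbered 1067 to 1343 except with a mean of at least 5 CPM required in Kyse410, which left 492 where 1145 had been called, since fewer weakly expressed genes were tested. Between 6743 and 7849 of the 7921 calls were kept in the same direction under each alternative. With the replicate block in the 6 Kyse410 libraries, 3921 genes were called higher, 4090 lower and 1129 at 2-fold or more. Same-numbered libraries did not deviate together (correlations 0.023, 0.046 and −0.0024), so the numbers were not taken as pairs.

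The median of the H3K9 list, −0.017, changed sign to 0.0078 in the 6 libraries alone, 0.0067 with the replicate block, 0.0023 without shRNA replicate 2 and 0.0051 without scramble replicate 2, within a range of −0.032 to 0.0051 when each library was left out. That of basal squamous identity genes, −0.04, became 0.023 with at least 5 CPM. The cause was not tested. Over all settings the median log2 fold change of all genes lay between −0.03 and 0. Of 42 list medians, 6 to 10 moved by more than the spread between libraries when 1 library was left out, 9 in the 6 libraries alone and with the replicate block, 11 with at least 5 CPM, 2 in the DESeq2 Wald test, 1 with DESeq2 size factors and 1 with no filter on low counts, not counting changes of sign. ORC2 lost its call in every alternative other than limma-voom and the fits without replicate 3 of either group. MAGEA1 lost its call in the 6 libraries alone, with the replicate block, with no filter and in the Wald test. AKT2 and SLC34A3 lost theirs with no filter, and ZNF799, RNF224 and SLC34A3 in the Wald test. Losses with 1 library left out are given beside each gene above. Without mitochondrially encoded genes their own list has no value. Depth, 8794930 gene reads in the smallest library, limits what can be called below 1 CPM.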

Other observations

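Of 1656 antisense genes tested, 272 were called higher and 256 lower, and of 497 long intergenic noncoding genes 86 and 65, against 3064 and 3743 of 12359 protein-coding genes. At 2-fold or more, 120 antisense, 59 long intergenic noncoding and 822 protein-coding genes were called. The AP-1 motif TGANTCA, searched on both strands, was found in the 250 upstream bases of 4.24% of tested genes, 8% of genes that fell and 7.95% of genes that rose by 2-fold or more, and 6.60% of all promoters in the RefSeq table (GRCh38.p14).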
